A study of Mus musculus with 6 samples.

Results

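Wild-type bone marrow-derived macrophages that held Il12b transcripts after 8 h of lipopolysaccharide (LPS) were set against cells of the same sample that held none. A cell was positive when at least 1 unique molecular identifier (UMI, a tag that marks 1 captured transcript) of Il12b had been counted in it, and negative when none had. Of 257 wild-type cells at 8 h, 253 had at most 25000 UMIs and entered the comparison. Of these, 92 were positive and 161 were negative, among 1362 cells in the series as a whole. The cells were selected on their Il12b UMIs, so the Il12b values are given as a description, and the comparison concerns all other genes.

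The series measured single macrophages by MARS-seq, a plate-based method in which sorted cells are lysed in wells and transcripts are counted from their 3' ends. It holds 6 samples, wild-type or Rad21-/-, each left untreated or stimulated with LPS at 10 ng/ml for 2 or 8 h. All cells came from mice that carry creERT2/creERT2 at the Rosa26 locus on a mixed C57BL/6 129 background, with Rad21 WT/WT in the wild-type and Rad21 lox/lox in the Rad21-/- group. Rad21, a subunit of the cohesin ring, was detected in 18.2% to 25.6% of wild-type and 2.62% to 5.43% of Rad21-/- cells per sample, and in 46 of the 253 wild-type cells at 8 h. The marrow was grown in L929-conditioned medium and received 4-hydroxy-tamoxifen on all plates, so the wild-type cells were exposed to the drug and carry the recombinase as well. Both groups are cells of 1 sample of cultured cells, sorted into wells and pooled for sequencing, and a difference between them has no replicate. No test was run, no p-value is given, and every interval below is at 95% and covers counting error only, not the spread between cells or cultures.

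Il12b encodes p40, the subunit that interleukin 12 and interleukin 23 share. Macrophages and dendritic cells make it in response to bacterial products such as LPS, which is sensed by Toll-like receptor 4, and interleukin 12 in turn drives interferon gamma production by T and NK cells. Il12b is a late, secondary LPS response gene whose induction needs chromatin remodelling, NF-kB, C/EBP and IRF family factors, and within a population of stimulated cells it is known to be transcribed by some cells and not by others at any one time.

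Il12b lies on the plus strand at chr11:44400063-44414677 (GRCm38.p6 gene table, RefSeq). Its upstream sequence is shown to mark letters of the NF-kB and C/EBP types named above, and IRF-type letters were not searched. That of Cxcl2 is shown because Cxcl2 was the abundant gene that differed most between positive and negative cells. Both are the 250 bases before the annotated start, from RefSeq, at chr11:44399813-44400062 and chr5:90903649-90903898 on the plus strand. Capitals mark matches to the NF-kB-type letters GGGAATTT, to the C/EBP-type letters TTGCAAT, or to TATATAA, the letters of a core promoter box. They were searched on both strands and did not overlap.
Il12b: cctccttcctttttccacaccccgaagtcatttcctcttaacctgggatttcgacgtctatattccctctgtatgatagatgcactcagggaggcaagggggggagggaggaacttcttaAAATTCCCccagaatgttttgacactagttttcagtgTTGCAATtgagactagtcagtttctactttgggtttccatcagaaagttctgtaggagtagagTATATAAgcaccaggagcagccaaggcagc
Cxcl2: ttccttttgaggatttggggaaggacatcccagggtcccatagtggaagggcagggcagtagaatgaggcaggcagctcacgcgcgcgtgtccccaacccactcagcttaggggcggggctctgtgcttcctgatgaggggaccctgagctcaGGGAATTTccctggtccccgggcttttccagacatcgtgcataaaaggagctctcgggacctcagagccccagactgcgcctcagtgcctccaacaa

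Counted from the base before the start as -1, the Il12b matches lie at -130 to -123 (NF-kB type, on the minus strand as AAATTCCC), -93 to -87 (C/EBP type) and -30 to -24 (core box). The NF-kB-type match of Cxcl2 lies at -97 to -90. Of 32851 promoter windows of the table, 0.843% hold the NF-kB-type letters, 1.96% the C/EBP-type letters and 3.04% the core box on either strand. The same windows of Fgl2 and Saa2, the genes with the most UMIs among those higher in positive cells, hold none of these letters. A match is a description of the sequence, not evidence that a factor binds there.

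Il12b UMIs per cell fell off steeply from 0. In the 253 cells, 161 held 0 UMIs, 38 held 1, 22 held 2, 10 held 3, 10 held 4, 5 held 5, 4 held 6, and single cells held 7, 8 and 18. The positive cells carried 234 Il12b UMIs together (205 to 266, exact Poisson interval), with a median of 2 and a mean of 2.54 per positive cell. The threshold therefore runs between the 38 cells with 1 UMI and the 161 cells with 0, and a cell with 0 captured UMIs is not shown to lack the transcript. At the depth limit, the deepest cell used had 22817 UMIs, and the 4 wells left out began at 36269 UMIs.

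The share of positive cells was 36.4% (30.4% to 42.6%, Clopper-Pearson interval) in wild-type cells at 8 h. In untreated wild-type macrophages, the closest measure of background, 5 of 238 cells held Il12b, which is 2.10% (0.686% to 4.83%), each with 1 UMI, at a median depth of 5859.5 UMIs against 5780 at 8 h. The share was 28.2% (21.8% to 35.3%) in wild-type cells at 2 h. In Rad21-/- cells it was 1.498% untreated, 16.8% at 2 h and 25.7% at 8 h. With cells thinned to an equal number of UMIs, the share in wild-type cells at 8 h was 30.4% (24.3% to 37.0%), and in untreated wild-type cells it was 1.09%.

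**Figure D1:**
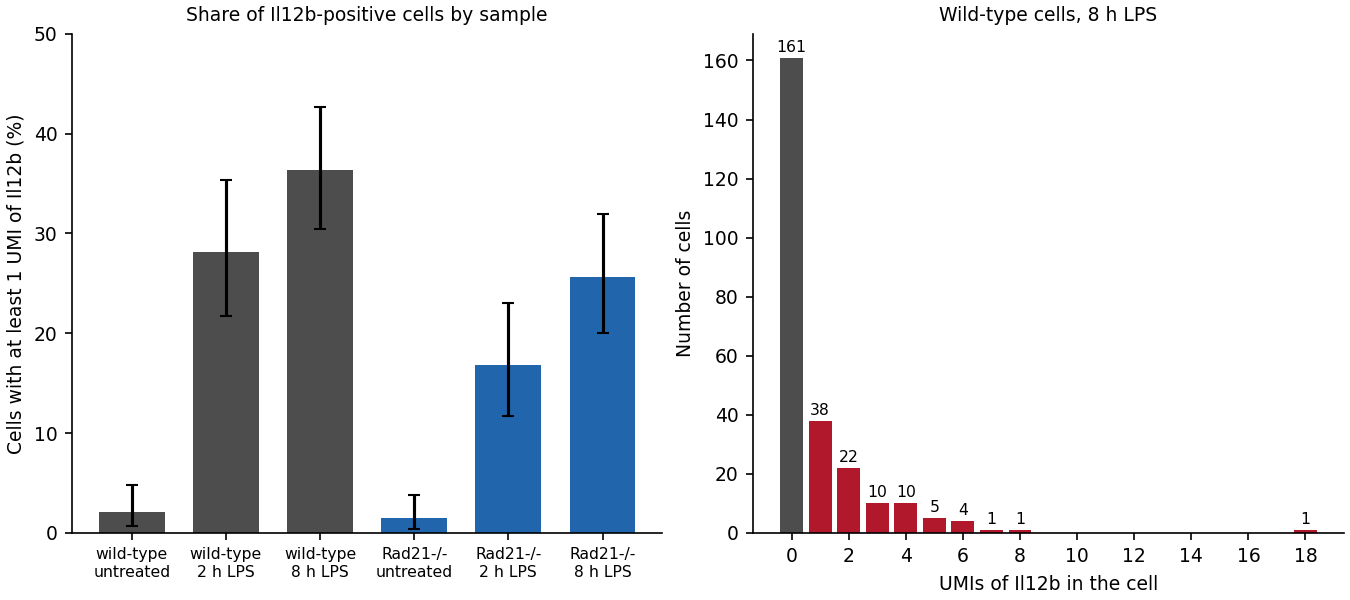
Left, Il12b-positive cells as a percentage of all cells used in each of the 6 samples (bars, wild-type grey and Rad21-/- blue) with Clopper-Pearson intervals at 95% (lines). Right, the number of wild-type cells at 8 h by their number of Il12b UMIs, with the 161 negative cells in grey and the 92 positive cells in red; most positive cells hold 1 or 2 UMIs.

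Depth moved with the split. Positive cells had a median of 5872.5 UMIs (3421 to 16995) and negative cells a median of 5450 (2529 to 22817). Among the 127 cells at or below the median depth 32.3% were positive (24.3% to 41.2%), and among the 126 deeper cells 40.5% were (31.8% to 49.6%). Across the 8 library pools in which the wells were sequenced, numbered here in the order of their names, the share lay between 20.0% and 43.8%. Each cell was therefore thinned to 4000 UMIs, with Il12b removed first, which kept 82 positive and 132 negative cells and left out 10 and 29. After thinning, the median number of genes detected was 1983.5 in positive and 1983 in negative cells. Mitochondrial transcripts took a median of 4.49% of the thinned UMIs in positive and 4.48% in negative cells, and cytosolic ribosomal protein transcripts 3.16% and 3.14%.

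Between positive and negative macrophages at equal depth, most genes lay close together. Of 18429 genes in the matrix, 1288 had at least 100 thinned UMIs over both groups and were compared by the log2 ratio of UMIs per cell, positive over negative, with 0.5 UMI added to each sum. The ratios had a median of -0.0064 and an SD of 0.25 over these genes, and ran from -1.54 to 0.79. For 1070 genes (83.1%) the groups differed by less than 1.25-fold. Cells with Il12b thus differed in few other measured genes by more than 1.5-fold: 10 of 1288 (0.776%) were higher by that much in positive cells and 26 (2.02%) were lower.

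The genes past 1.5-fold were mostly genes with few UMIs. Of the 10 higher genes 8, and of the 26 lower genes 23, had fewer than 200 UMIs. The SD of the log2 ratio was 0.29 over the 705 genes with 100 to 199 UMIs and 0.16 over the 93 genes with at least 1000. Among those 93 abundant genes 1 was past 1.5-fold, the chemokine gene Cxcl2. Ratios were also taken within the 4 pools with 10 or more thinned cells in both groups. The direction was the same in all 4 for 3 of the 10 higher and 12 of the 26 lower genes, and for 169 of all 1288 genes. These pools are part of the cells from which the genes were picked, so agreement among them is not a separate check. With each of the 8 pools left out in turn, 1 of the higher genes (Rnase4) and 13 of the lower genes stayed past 1.5-fold throughout, and the other 9 and 13 were below it without at least 1 pool. Without pools 3 and 5 the higher genes were 21 and 16, and without pool 2 the lower genes were 43.

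**Figure D2:**
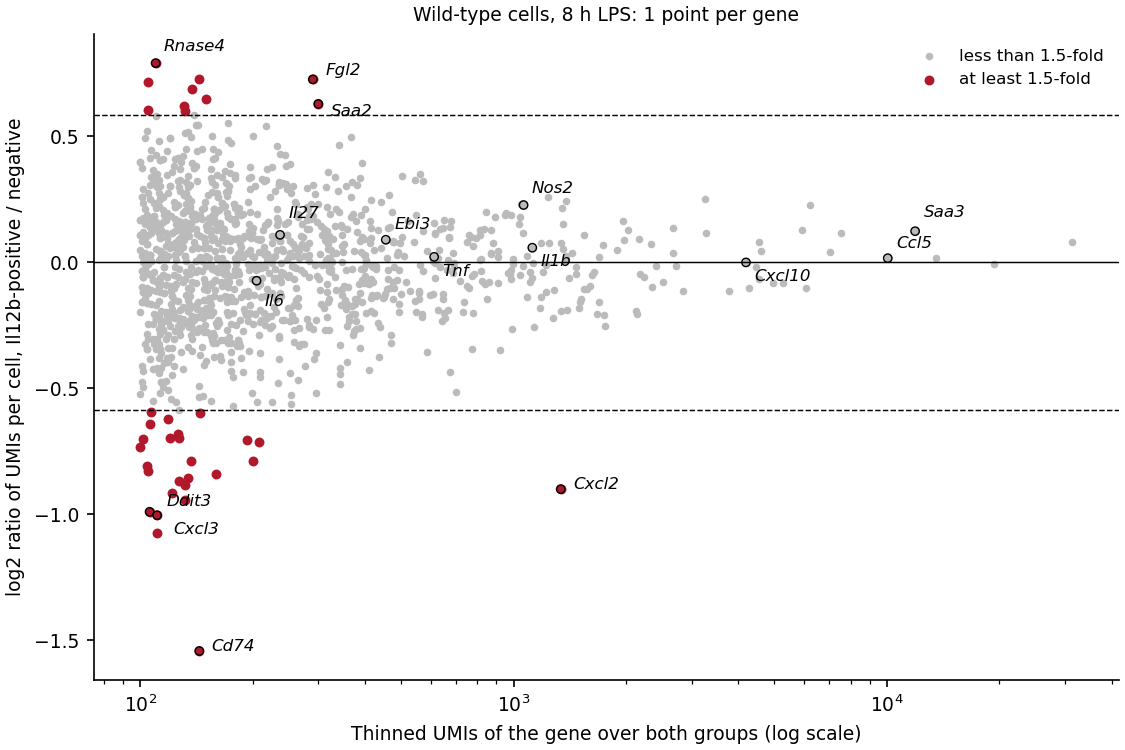
The log2 ratio of UMIs per cell, Il12b-positive over negative, against the thinned UMIs of each gene over both groups (log scale), 1 point per gene for 1288 genes, with dashed lines at 1.5-fold. The ratios spread widely at low counts and close in on 0 at high counts, where Cxcl2 at -0.90 is the single red point among genes with at least 1000 UMIs.

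Cxcl2, which encodes the neutrophil-attracting chemokine MIP-2, was lower in Il12b-positive cells. It had 334 UMIs in the 82 positive cells and 1004 in the 132 negative cells. This is 4.07 UMIs per cell (3.65 to 4.53) against 7.61 (7.14 to 8.09), or 1.87-fold lower in positive cells, a log2 ratio of -0.90 (-1.08 to -0.72). The positive cells held a median of 3 UMIs with quartiles of 1 and 6 and a highest value of 23, and the negative cells a median of 4 with quartiles of 2 and 8 and a highest value of 54. The distributions overlapped over most of their range, and 90.2% of positive and 93.9% of negative cells held at least 1 Cxcl2 UMI. The log2 ratio was -1.55, -0.80, -0.60 and -1.39 in pools 1 to 4, so that positive cells were lower in each.

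Cxcl3, a close relative of Cxcl2 that binds the same receptor, had 26 UMIs in positive and 85 in negative cells, a log2 ratio of -1.003 (-1.72 to -0.37). It was lower in 3 of the 4 pools and at 0.12 in pool 3, and its ratio was -0.63 without pool 4 and -0.53 with status taken from thinned UMIs. Cxcl1, the third of these neighbouring chemokine genes, had 135 and 241 UMIs and a ratio of -0.15 (-0.46 to 0.16), which does not set the groups apart at this depth. These genes are similar in sequence. The counting kept unambiguously mapped reads.

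Ddit3, the stress-induced transcription factor CHOP, had 25 UMIs in positive and 81 in negative cells and was lower in all 4 pools, between -1.40 and -0.54, with a log2 ratio of -0.99 (-1.72 to -0.35) over all cells. It was -0.50 when the status of a cell was taken from its thinned UMIs. Positive cells carried at least 1 Ddit3 UMI in 25.6% of cases and negative cells in 37.9%. Other secretory pathway and stress genes were closer to even. Hspa5, the main chaperone of the endoplasmic reticulum, stood at -0.24 (-0.54 to 0.05), and Atf4, which acts upstream of Ddit3, at -0.18 (-0.58 to 0.20). Gdf15, a stress-induced cytokine, had 53 and 148 UMIs and a ratio of -0.79 (-1.28 to -0.33), with a positive value in pool 1.

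Cd74, the invariant chain of MHC class II, had the lowest ratio of all 1288 genes and was carried by few cells. It had 25 UMIs in positive and 119 in negative cells, a log2 ratio of -1.54 (-2.25 to -0.93). These UMIs sat in 13 of 82 positive and 26 of 132 negative cells, and 1 negative cell held 27.7% of the negative group's total. The ratio was -3.85, -0.29, 1.37 and -1.29 in pools 1 to 4. When each positive cell was paired with a negative cell of like depth from its own pool (74 pairs), the Cd74 ratio was 0.060.

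The other genes lower by at least 1.5-fold had ratios between -1.08 and -0.59. Those with the same direction in all 4 pools included Npm1, which encodes the nucleolar protein nucleophosmin (32 and 100 UMIs, -0.94), Ifit3b, an interferon-induced antiviral gene (33 and 99 UMIs, -0.88), and Pgd, an enzyme of the pentose phosphate pathway (27 and 78 UMIs, -0.83). Others were Atp6v0e, a subunit of the vacuolar proton pump (57 and 151 UMIs, -0.71), Osbpl8 (33 and 87, -0.70), Spcs2, a subunit of the signal peptidase (34 and 85, -0.62), and Basp1 (42 and 103, -0.60). Grtp1, 4930430E12Rik and Gm10343 complete those 12 genes with Cxcl2 and Ddit3. In another random draw of the UMIs, Npm1 stood at -0.43, Gm10343 at -0.47, Spcs2 at -0.55, Basp1 at -0.0063 and Grtp1 at 0.0070, none of them past 1.5-fold. Basp1 was at 0.13 with status taken from thinned UMIs, Grtp1 at -0.50 without pool 2, and Pgd at -0.57 without pool 1 and -1.26 without pool 5. Atp6v0e and Osbpl8 were past 1.5-fold in 16 and 12 of 20 alternatives. Without thinning they stood at -0.23 and -0.34. In pairs matched for depth within the pool, both stood at -0.35. Psmb9, Fxyd5 and RP24-539M22.2 were also lower in all 4 pools, at -0.57, -0.56 and -0.54, without reaching 1.5-fold.

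Il1a, which encodes interleukin 1 alpha, was lower over all cells (27 and 73 UMIs, -0.73) and in 3 pools, with a value of 0.00 in pool 4. Il1a was past 1.5-fold in 15 of 20 alternatives. Its ratio was -0.11 in pairs matched for depth within the pool, -0.37 with status taken from thinned UMIs and -0.39 without thinning. The chemokine gene Ccl6 (53 and 140 UMIs, -0.71) was lower in 3 of the 4 pools, and its ratio was -0.30 without pool 2. Sema4d (-0.86), Ctla4 (-0.84), Grik3 (-0.87), Cntn5 (-0.64), Nif3l1 (-0.68), Csnk2b (-0.59) and the ribosomal protein gene Rpl23a (-0.70) were mixed across pools. Rpl18-ps1 (25 and 86 UMIs, -1.08) is a ribosomal protein pseudogene, whose count is uncertain because reads can be shared with near-identical copies. Of these genes, Rpl18-ps1, Sema4d, Ctla4, Grik3, Cntn5, Nif3l1 and Csnk2b lie outside the rule for named genes and were chosen after their values were seen.

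Fgl2 and Saa2 had the most UMIs of the genes higher in Il12b-positive cells. Fgl2 encodes a fibrinogen-like protein that activated macrophages express. It had 147 UMIs in positive and 143 in negative cells, which is 1.79 per cell (1.51 to 2.11) against 1.08 (0.913 to 1.28). This is 1.65-fold (1.31 to 2.10) higher in positive cells, a log2 ratio of 0.73 (0.38 to 1.07). At least 1 UMI was held by 63.4% of positive and 53.03% of negative cells, the median was 1 in both groups, and the highest values were 13 and 8. The ratio was 1.06, 1.81, 0.62 and 1.53 in pools 1 to 4, above 0 in each. It was 0.57 without pool 2 and 0.52 at the lower depth that 90% of cells reach, both below 1.5-fold.

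Saa2, an acute-phase serum amyloid A gene, had 147 UMIs in positive and 153 in negative cells, or 1.79 and 1.16 per cell. The log2 ratio was 0.63 (0.29 to 0.97), with 75.6% of positive and 56.8% of negative cells holding at least 1 UMI. It was 1.45 in pool 1 and 0.22, 0.36 and 0.0074 in pools 2 to 4. Saa2 was past 1.5-fold in 9 of 20 alternatives. Its ratio was 0.19 with status taken from thinned UMIs, 0.31 in pairs matched for depth within the pool, 0.39 at the depth that 50% of cells reach, 0.49 in another random draw and between 0.52 and 0.57 without pool 1, 6 or 8. Saa3, the main macrophage member of the family, had 4805 and 7098 UMIs and a ratio of 0.12 (0.07 to 0.18), and Saa1 stood at 0.10 (-0.49 to 0.66). Serum amyloid A genes are similar in sequence, and their counts are uncertain to that extent.

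The third of the higher genes with the same direction in all 4 pools was Gm5566 (51 and 54 UMIs, 0.61). Rnase4, a secreted ribonuclease, had the highest ratio (57 and 53 UMIs, 0.79, interval 0.23 to 1.36) and was below 0 in pool 1. Rnase4 was past 1.5-fold in 16 of 20 alternatives. Its ratio was 0.17 at the depth that 50% of cells reach and 0.44 with equal weight per pool. In pairs matched for depth within the pool it was 0.56, and with cells of any UMI sum 0.57. H2afz, a histone variant (0.73), Tubb5, a tubulin (0.71), Snrpf, a splicing component (0.69), Ddx58, which encodes the RNA sensor RIG-I (0.65), Oaz1-ps (0.62) and Ddah1 (0.60) were each below 0 in at least 1 pool. Single pools moved these ratios: without pool 2, H2afz stood at 0.26, Tubb5 at 1.25 and Oaz1-ps at 0.39. Without pool 4, Snrpf stood at 0.33 and Oaz1-ps at 0.94, and without pool 1 Oaz1-ps stood at 0.38. Ddx58 was past 1.5-fold in 9 of 20 alternatives. Its ratio was 0.07 in pairs matched for depth within the pool and 0.23 with status taken from thinned UMIs. Of the higher genes, Rnase4, H2afz, Tubb5, Snrpf, Oaz1-ps and Ddah1 were chosen after their values were seen. Below 1.5-fold but in 1 direction in all 4 pools were Sppl2a, a protease that cleaves the invariant chain (0.58), Pde4d, a cyclic AMP phosphodiesterase (157 and 183 UMIs, 0.47), and Ms4a6c (171 and 195 UMIs, 0.50). The same held for Ncf1, a subunit of the phagocyte NADPH oxidase (0.48), and Ptpn1, a phosphatase of cytokine receptor signalling (0.47).

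**Figure D3:**
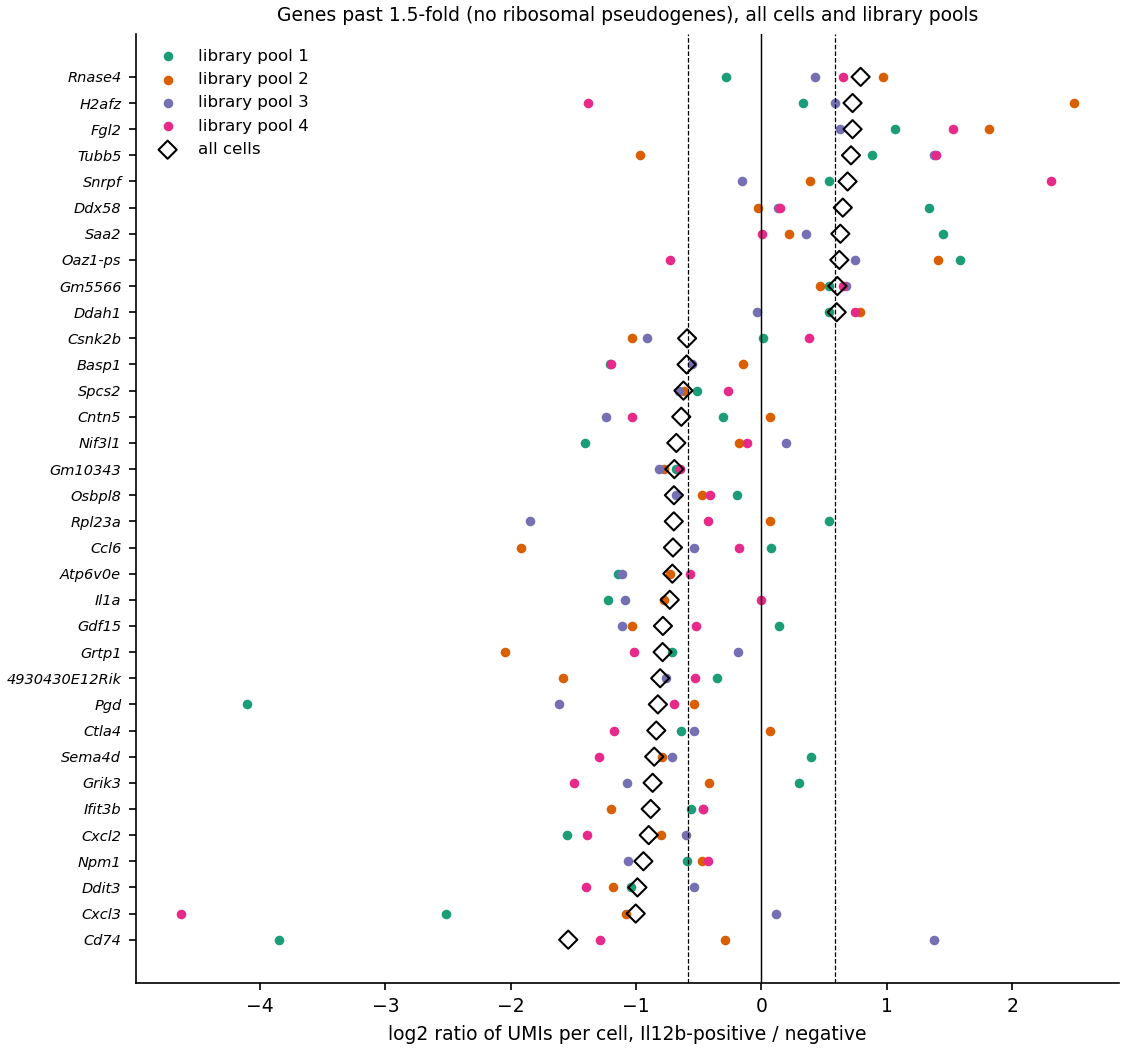
The log2 ratio of UMIs per cell, Il12b-positive over negative, for the genes past 1.5-fold, with ribosomal protein pseudogenes left out (34 genes): all thinned cells (diamonds) and each of library pools 1 to 4 (points), with dashed lines at 1.5-fold. Cxcl2 and Ddit3 lie to the left of 0 and Fgl2 to the right in every pool, while Cd74 spreads from -3.85 to 1.37.

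Of the cytokine partners and relatives of p40, Il27 and Ebi3 had enough UMIs to compare, and neither was past 1.5-fold. Il23a, which encodes the p19 subunit that joins p40 in interleukin 23, had 2 UMIs in positive and 1 in negative cells, too few for a comparison. Il12a, the p35 partner in interleukin 12, was not analysed here. Il27, the p28 subunit of interleukin 27, had 95 and 142 UMIs, or 1.16 and 1.08 per cell, with a ratio of 0.11 (-0.28 to 0.49). Ebi3, its p40-like partner, had 181 and 274 UMIs, or 2.21 and 2.08 per cell, with a ratio of 0.09 (-0.19 to 0.36). Il27 was detected in 58.5% of positive and 56.8% of negative cells, and Ebi3 in 74.4% and 75%. The intervals of both genes lie within 1.5-fold in either direction, as far as counting error goes.

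Il6, another late LPS-induced cytokine, had 76 and 129 UMIs, a ratio of -0.07 (-0.50 to 0.34), and was detected in 42.7% of positive and 43.2% of negative cells. Il10, whose product restrains Il12b expression, had 33 and 59 UMIs and a ratio of -0.14 (-0.81 to 0.49). The receptor genes were at the edge of detection: Il12rb2 had 5 and 7 UMIs, Il23r 4 and 8, Il6st 3 and 8, and Il12rb1 0 (up to 3.69, exact Poisson interval) and 3. Over the 12 and 26 UMIs of the receptors together no difference was detectable.

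Of 12 listed factors known to activate Il12b, 7 had enough UMIs to compare, and none was past 1.5-fold. Of all 1288 genes 2.80% were. At that share a set of this size, or of the 4 repressors compared below, would hold few or none. The median log2 ratio of the 7 was -0.05 against -0.0064 over all 1288 genes. Spi1, the macrophage lineage factor PU.1, stood at 0.02 (177 and 282 UMIs), Cebpb at 0.01 (312 and 499), Nfkb1 at -0.06 (38 and 64), Irf8 at -0.20 (35 and 65), Batf at -0.25 (97 and 186) and Irf1 at 0.26 (57 and 77). The intervals of Nfkb1 (-0.68 to 0.54), Irf8 (-0.84 to 0.41), Batf (-0.62 to 0.11) and Irf1 (-0.27 to 0.77) each reach past 1.5-fold, so that a difference of that size is not excluded for them. Of the 8 listed repressors, 4 were compared, none past 1.5-fold: Atf3 at 0.17, Stat3 at 0.06, Maf at 0.03 and Bcl3 at 0.02. The NF-kB list, with 8 of 13 genes compared, held 4 ratios above and 4 below 0, between -0.11 for Nfkb2 and 0.32 for Tnip1. The summed ratio of the whole NF-kB list was 0.09 (0.002 to 0.19). Nfkbia, the feedback inhibitor of NF-kB, had 536 and 848 UMIs and a ratio of 0.03.

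Other inflammatory products of LPS-stimulated macrophages were close to even at high counts. Tnf had 237 and 376 UMIs and a ratio of 0.02 (-0.22 to 0.26), and Il1b 441 and 682 UMIs and 0.06 (-0.12 to 0.23). Il1rn, the interleukin 1 receptor antagonist, stood at -0.25 (-0.40 to -0.11). Nos2, the inducible nitric oxide synthase, had 448 and 616 UMIs, or 5.46 and 4.67 per cell, and stood at 0.23 (0.05 to 0.41). Irg1, the itaconate-producing enzyme, stood at -0.08 and Ptgs2, the inducible cyclooxygenase, at -0.15. None of these reached 1.5-fold.

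The chemokine lists held both directions. Of 8 CC chemokines compared, 1 was past 1.5-fold (Ccl6, lower) and the median was -0.02. Of all 1288 genes, 2.02% were lower by at least 1.5-fold. Ccl5, with 3881 and 6175 UMIs, stood at 0.02, Ccl3 at -0.10, Ccl2 at -0.08, Ccl4 at -0.07, and Ccl12 at 0.35 (0.11 to 0.60). Of 5 CXC chemokines compared, Cxcl2 and Cxcl3 were lower by more than 1.5-fold, where 2.02% of all 1288 genes were, and the median was -0.16. Cxcl10, a target of interferon signalling, had 1607 and 2587 UMIs, which is 19.6 per cell in both groups.

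Interferon-stimulated genes were spread around 0. Of 28 listed genes 26 were compared, with 15 above and 11 below 0, a median of 0.04, 1 higher (Ddx58) and 1 lower (Ifit3b) by at least 1.5-fold. Of all 1288 genes, 0.776% were higher and 2.02% lower by that much. Ifit3, which is similar in sequence to Ifit3b so that both counts are uncertain, stood at -0.14 (-0.46 to 0.16), Isg20 at -0.36 (-0.61 to -0.10) and Irf7 at -0.16. The 11 guanylate-binding protein and immunity-related GTPase genes compared had a median of 0.04, and none was past 1.5-fold. The 11 genes of MHC class I presentation and the immunoproteasome had a median of -0.02, from -0.57 for Psmb9 to 0.15 for H2-D1. Cd40, which receives T cell help, stood at 0.05 and Cd274, which encodes PD-L1, at -0.02.

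Lysosomal genes lay on both sides of 0, and secretory pathway and glycolysis genes mostly below it. The 11 lysosomal genes compared, 6 above and 5 below 0, had a median of 0.08, and the whole list, summed, a ratio of 0.10 (0.05 to 0.15). Lyz2 stood at 0.25 (1388 and 1876 UMIs, interval 0.15 to 0.35), Lyz1 at 0.39 and Ctsl at -0.22 (-0.46 to 0.01). Of 8 genes of endoplasmic reticulum stress and secretory chaperones 7 lay below 0, with a median of -0.21, the lowest of the 26 lists with at least 5 genes compared. Ddit3 was the one past 1.5-fold, where 2.02% of all 1288 genes were lower by that much. The summed ratio of the whole secretory list was -0.21 (-0.34 to -0.08). The summed UMIs of this list had a median of 9 per positive and 10 per negative cell. The highest values were 19 in a positive and 53 in a negative cell. Of 5 glycolysis genes 4 lay below 0, among them Aldoa at -0.36 (-0.73 to -0.01) and Pkm at -0.32. Their median was -0.15, and the summed ratio of the whole list was -0.18 (-0.33 to -0.03). In wild-type cells at 2 h and Rad21-/- cells at 2 h and 8 h, the secretory medians were -0.18, 0.15 and 0.03. The glycolysis medians there were 0.04, 0.45 and 0.12, and the lysosomal medians 0.10, 0.12 and 0.01. The antioxidant gene Prdx1 had 213 and 490 UMIs and stood at -0.51 (-0.75 to -0.28), with pools between -1.31 and 1.27 and 9.18% of the negative group's UMIs in 1 cell. Hmox1 stood at 0.31 (-0.04 to 0.65), with pools between -1.39 and 1.31 and 21.4% of the positive group's UMIs in 1 cell. The 58 cytosolic ribosomal protein genes compared had a median of -0.06, and the 10 mitochondrially encoded genes a median of -0.05.

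Across the 26 lists, medians ran from -0.21 to 0.13, and none reached 1.5-fold. The study's list of 356 LPS-inducible genes, to which Il12b itself belongs, had 196 members compared. Of these 2 were higher (Fgl2 and Ddx58) and 4 lower (Cxcl2, Cxcl3, Il1a and Gdf15) by at least 1.5-fold, which is 3.06% against 2.80% of all 1288 genes. The medians of its classes lay between -0.13 (class B, 5 genes) and 0.05 (class F, 35 genes). The share of inducible genes past 1.5-fold was thus near that of all genes.

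**Figure D4:**
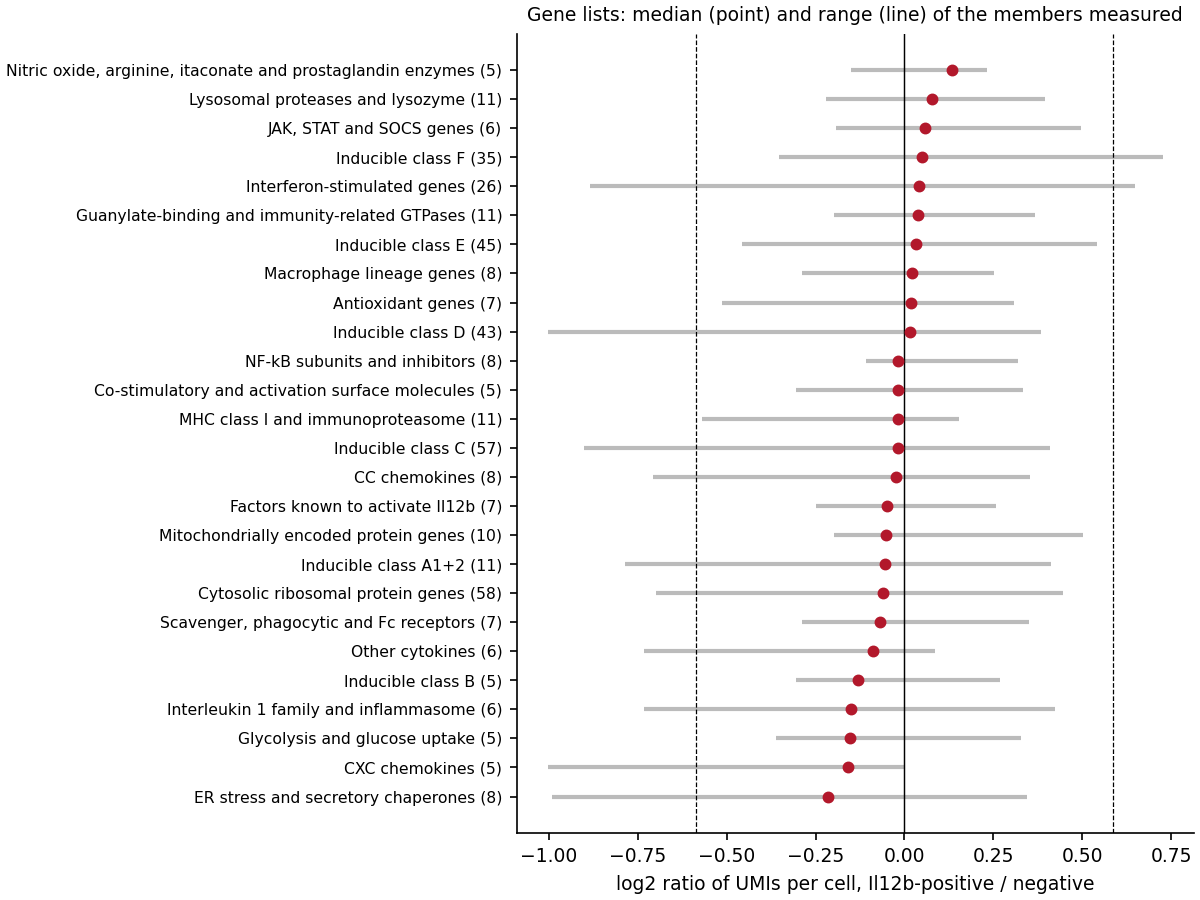
The median (points) and range (lines) of the log2 ratio of UMIs per cell, Il12b-positive over negative, for the 26 gene lists with at least 5 genes compared (number in brackets), with dashed lines at 1.5-fold. The medians lie between -0.21 and 0.13, and single members such as Cxcl3 and Ddit3 reach past the lower line.

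Both groups carried the macrophage label in their transcripts. Of 14 listed macrophage genes 8 were compared, with a median of 0.02: Cd68 stood at 0.04 (268 and 421 UMIs), Csf1r, the receptor for the growth factor in the medium, at -0.10, and Adgre1, which encodes F4/80, at 0.24 (-0.13 to 0.60). The summed ratio of the whole macrophage list was 0.14 (0.06 to 0.22). Summed macrophage marker UMIs ranged from 7 to 73 per positive cell, with a median of 27, and from 6 to 70 per negative cell, with a median of 24. The 6 of 12 dendritic cell markers in the matrix summed to 27 UMIs in positive and 45 in negative cells, with a median of 0 and at most 4 per cell in either group. Of the listed markers, 2 of 9 for neutrophils, 2 of 6 for B cells and 2 of 9 for T and NK cells were in the matrix. For mast cells 1 of 5 and for stromal cells 5 of 6 were, and no erythroid marker was in the matrix. The markers in the matrix summed, per list, to between 3 and 9 UMIs in positive and between 4 and 22 in negative cells. DNA replication genes summed to 110 and 194 UMIs and mitosis genes to 49 and 93, with medians of 1 and 0 per cell in both groups. The part of cell cycle or cell type in the differences above was not tested.

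With positive cells divided by their Il12b UMIs, 32 thinned cells held 1 and 50 held at least 2. Cxcl2 had 7.61 UMIs per cell in negative cells, 3.03 (2.46 to 3.70) in cells with 1 Il12b UMI, and 4.74 (4.16 to 5.38) in cells with more. Both positive classes were below the negative cells, and the class with more Il12b was not the lower one. Fgl2 had 1.08, 2.03 and 1.64 UMIs per cell in the same order, again without a step from 1 to more UMIs. Saa2 had 1.16, 1.66 and 1.88, Ddit3 0.614, 0.375 and 0.26, and Cxcl3 0.644, 0.375 and 0.28. Il27 had 1.08, 1.09 and 1.20. For these last 4 genes the intervals of the classes with 1 and with at least 2 UMIs overlapped widely. Cxcl2, Fgl2, Saa2, Ddit3 and Cxcl3 were picked on the difference between these same positive and negative cells. Where the negative cells stand for them is therefore not a separate check.

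**Figure D5:**
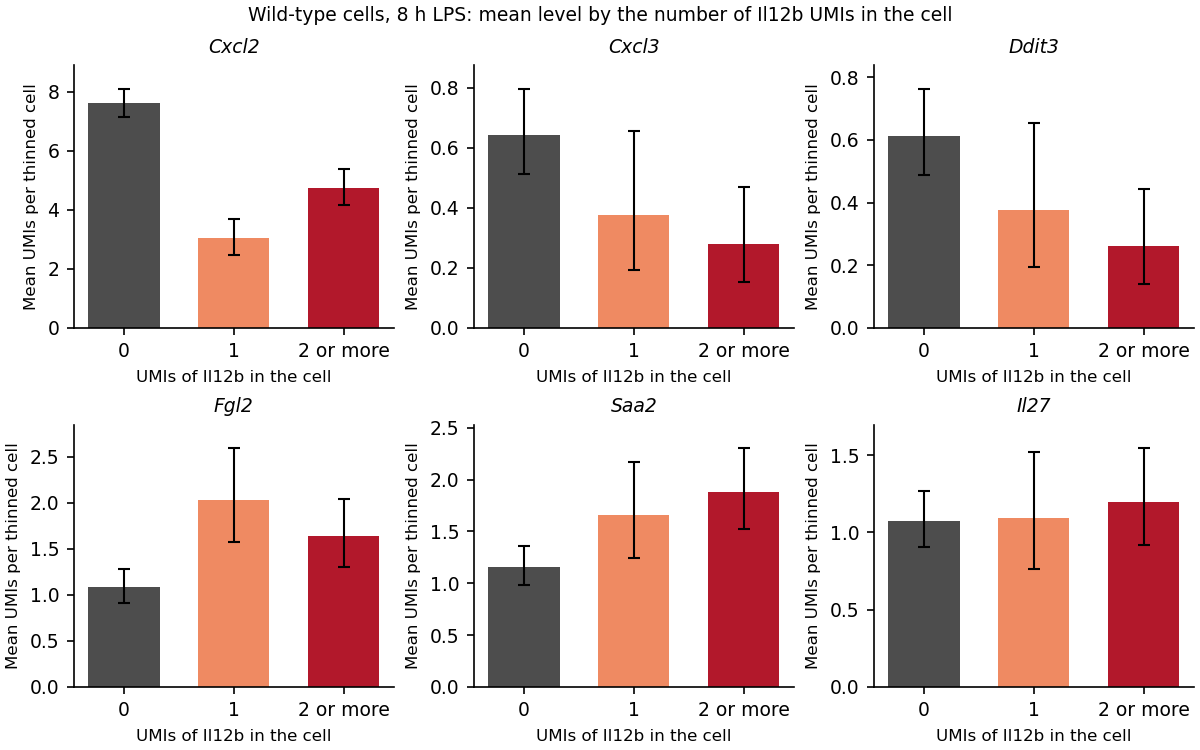
Mean UMIs per thinned cell (bars) of 6 genes in wild-type cells at 8 h with 0, 1 or at least 2 UMIs of Il12b, with exact Poisson intervals at 95% (lines). Cxcl2, Cxcl3 and Ddit3 are highest in cells without Il12b, Fgl2 and Saa2 are lowest there, and Il27 is level from 1.08 to 1.20. All but Il27 were picked on the difference between these same cells.

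The same split was made in the samples that did not choose these genes. At the same thinned depth it left 46 positive and 108 negative wild-type cells at 2 h, 23 and 124 Rad21-/- cells at 2 h, and 54 and 142 Rad21-/- cells at 8 h. Cxcl2, which had 861 and 2091 UMIs in wild-type cells at 2 h, stood at -0.05 there, and at 0.32 and 0.29 in Rad21-/- cells at 2 h and 8 h. The lower Cxcl2 of positive wild-type cells at 8 h was thus not seen in the other 3 samples, and the difference between samples was not tested. Fgl2 stood at 0.02 in Rad21-/- cells at 8 h, with 79 and 206 UMIs, and had 6 and 9 UMIs in wild-type cells at 2 h. Saa2 stood at 0.85 in Rad21-/- cells at 8 h (41 and 60 UMIs), above 0 as in wild-type cells, and had at most 1 UMI in either group at 2 h. Ddit3 stood at -1.05 in Rad21-/- cells at 8 h, with 4 and 24 UMIs, and at -0.35 in wild-type cells at 2 h, with 14 and 43. Cd74 was lower in positive cells of all 3 other samples, at -1.0004, -1.87 and -1.04, on 16 and 77, 1 and 29, and 12 and 67 UMIs.

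Taken as a group, the genes picked at 8 h in wild-type cells kept their side in some samples and not in others. Of the 10 higher genes 8 lay above 0 in wild-type cells at 2 h, 7 in Rad21-/- cells at 2 h and 5 in Rad21-/- cells at 8 h, where 52.6%, 57.997% and 49.8% of all 1288 genes did. Of the 26 lower genes 18, 8 and 14 lay below 0, where 47.4%, 42.003% and 50.1% of all genes did. In these samples 4.66%, 12.9% and 6.21% of all genes were higher by at least 1.5-fold in positive cells and 4.58%, 8.46% and 4.11% lower, on fewer positive cells. Il6 had a ratio of 1.60 in Rad21-/- cells at 8 h (22 and 19 UMIs), beside -0.07 in wild-type cells at 8 h. At 2 h the Il6 ratio was -2.47 in wild-type and -1.03 in Rad21-/- cells. The Il6 UMIs behind these values are not given here, so no direction at 2 h is drawn from them. In Rad21-/- cells at 8 h, Il27 stood at 0.67 (18 and 30 UMIs) and Ebi3 at 0.05 (173 and 440 UMIs). At 2 h Ebi3 stood at -0.16 in wild-type (26 and 69 UMIs) and -0.06 in Rad21-/- cells (17 and 98 UMIs). The median of Il27 and Ebi3 was 0.28 and 0.76 there. It rests on 2 genes, and the Il27 UMIs at 2 h are not given here.

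Genes next to Il12b on chromosome 11 were too sparse to compare. Within 500 kb lie Ublcp1 (39.9 kb away), Rnf145 (104 kb), Ebf1 (203 kb) and Adra1b (499 kb). In positive and negative cells they had 3 and 5, 9 and 8, 9 and 13, and 2 and 3 UMIs. The interval of Rnf145, whose ratio was 0.85, ran from -0.69 to 2.43. A co-variation of these genes with Il12b was not detectable at this depth.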

How the data were processed

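The authors sorted single macrophages into plates, prepared MARS-seq libraries, assigned reads to wells by their barcodes, trimmed polyT, mapped with GEMTools to GRCm38.p4 (Gencode annotation), discarded wells by spike-in, mapped and total reads, and collapsed UMIs. The deposited values are UMI counts per gene and cell, not normalized.

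Samples and pools were read from the cell names, and 0 columns lacked a sample. No pool and well was shared between the wild-type and Rad21-/- cells at 8 h. Cells over 25000 UMIs were left out. Thinning drew UMIs without replacement, 1 seeded draw, to 4000 per cell, which at least 80% of both groups reach in steps of 100. With 1 sample per group, no model was fitted. Intervals at 95% are exact Poisson for sums, Clopper-Pearson for shares and conditional binomial for ratios, and cover counting error only, since captured UMIs share wells and libraries. Gene names were matched to a GRCm38.p6 RefSeq table (16122 of 18429), whose coordinates are printed. Analyses used Python 3.11.15, numpy 2.4.6, pandas 2.3.3, scipy 1.17.1 and matplotlib 3.10.9, and ratios were tested on simulated data with known folds.

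The members, gene lists and rules were chosen with earlier results of these data known. Named genes were the interleukin 12 and 27 family, its receptors, Il6 and Il10, the 15 highest and 15 lowest ratios with 1 direction in all 4 pools, the 2 highest and 2 lowest members of each list, and genes within 500 kb of Il12b. Others named were chosen after their values were seen. A gene past 1.5-fold is counted but not reported here by name. Alternatives concerned depth, the positive rule, matching, pools, scaling, the UMIs added and the UMI minimum. The samples other than wild-type at 8 h entered as descriptions.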

Additional observations from a re-analysis of the deposited data

Results flagged for a closer look

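Nif3l1 had a log2 ratio of -0.68 in wild-type cells at 8 h (35 UMIs in positive and 91 in negative cells) and 0.81 in Rad21-/- cells at 8 h, the opposite way with both past 1.5-fold. It is listed because the groups moved in opposite directions, and the difference was not tested. In wild-type cells its ratio ranged from -1.41 to 0.20 over the 4 pools.

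Of the wild-type wells at 8 h with more than 25000 UMIs, which the comparison left out, 4 of 4 held Il12b, with 26 Il12b UMIs together and between 36269 and 137035 UMIs in all. In untreated wild-type cells, 0 of 1 such well held it. These wells are listed because they carry a signal outside the cells compared, and their number is too small for a share.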

How the results depend on the processing

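The share of positive cells was 30.4% in thinned cells and 21.3% when 2 UMIs made a cell positive. The 10 genes higher by 1.5-fold became 19 at the depth that 50% of cells reach, 4 with mean CPM and no thinning, 16 with positive from 2 UMIs, 30 with equal weight per pool, 93 and 2 with minimums of 50 and 200 UMIs, and 9 to 21 without 1 pool (21 and 16 without pools 3 and 5). The 26 lower genes became 10 with mean CPM, 52 with positive from 2 UMIs, 40 with status taken from thinned UMIs, 126 and 3 with those minimums, and 26 to 43 without 1 pool, 43 without pool 2. Another draw gave 15 higher and 27 lower genes, 4 and 16 of them shared. Ratios changed sign for Basp1 (0.13, thinned status), Cd74 and with it the MHC class II median (0.060, matched pairs), Grik3 (0.072, matched pairs), Grtp1 (0.017 at the deeper thinning, 0.0070 in another draw), Oaz1-ps (-0.065 with CPM, -0.091 matched) and Sema4d (0.19 at the deeper thinning). The cause of each change was not tested. Of the 36 genes, 30 kept their direction and 2, Cxcl2 and Rpl18-ps1, stayed past 1.5-fold under all 20 alternatives. The ratio of Cxcl2 then lay between -1.09 and -0.68. No paired analysis was possible because both groups are cells of 1 sample, with no replicate samples to pair (the matched pairs are pairs of cells), and no result comes from a test. Another draw moved even Saa2, with 147 and 153 UMIs, below 1.5-fold, and 34 of the 36 genes were not past it under at least 1 alternative.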
